A study of Mus musculus with 12 samples.

Results

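Tumor necrosis factor (TNF), its receptors and the NF-kB transcription factors with their feedback genes were followed through 4 flow-sorted cell populations of a mouse glioblastoma (GBM). The 10 genes were *Tnf*, *Tnfrsf1a*, *Tnfrsf1b*, *Nfkb1*, *Nfkb2*, *Rela*, *Relb*, *Nfkbia*, *Nfkbiz* and *Tnfaip3*, chosen by symbol from the 18180 genes of the expression table, and all 10 were found. EGFR+ GBM cells were sorted by flow cytometry from 3 tumors (T3, T4 and T5) into PDGFRA+, PDGFRA-, GAL1+ and GAL1- populations, which gives 12 bulk RNA-seq libraries and 3 per population. PDGFRA is a growth factor receptor of oligodendrocyte precursor-like cells, and GAL1 (Galectin-1, gene *Lgals1*) is a carbohydrate-binding protein. The tumors arose in adult mice that carried a conditional human EGFR transgene and a luciferase reporter and lacked Cdkn2a (-/-). They were started by injecting a Cre lentivirus into the brain, and they were taken at end stage. The strain background was mixed, with C57Bl/6J, 129S4, FVBN/J and Balb/cJ in the sample labels and SJL also named in the study's methods. All 4 populations share the same engineered alleles and the EGFR gate, and the study has no normal brain cells in this set. EGFR was stained together with either PDGFRA or GAL1, so the PDGFRA and GAL1 sorts of a tumor can hold the same kinds of cells, and the 4 libraries of a tumor are not independent.

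TNF is a cytokine made as a membrane protein and cut free by a protease, and myeloid cells such as microglia and macrophages are its best known source in brain. It binds TNFR1 (*Tnfrsf1a*), which most cells carry and which holds a death domain, and TNFR2 (*Tnfrsf1b*), which is more restricted to immune and endothelial cells. Receptor signaling activates the IKK kinases, which mark the inhibitor IkBa (*Nfkbia*) for destruction and so release NF-kB dimers into the nucleus. Those dimers switch on target genes that include *Nfkbia* and the ubiquitin-editing enzyme A20 (*Tnfaip3*), which close a negative feedback loop.

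The 12 libraries held between 9851175 and 24117541 reads, as recovered from the log2 CPM in the table (CPM is the reads of a gene scaled to a fixed library total). All 10 genes were above 1 CPM in all 12 libraries, and the lowest read number of any of them was 44 (*Tnf* in GAL1- cells of T3). The paper calls these cells CD45-, and its general flow cytometry methods define tumor cells as CD45- and human EGFR+. Its description of the staining for this sort names antibodies to EGFR and to PDGFR or Galectin-1 and none to CD45. The transcript of CD45, *Ptprc*, was present in all libraries, with log2 values of 8.21 to 8.997 in the GAL1+ libraries and 3.70 to 5.18 in the GAL1- libraries. The PDGFRA+ libraries had 6.11 to 7.33 and the PDGFRA- libraries 6.65 to 8.66. The GAL1+ libraries had a summed CPM of 3049 to 4358 over 12 pan-leukocyte genes and the GAL1- libraries one of 101 to 261, with 705 to 1647 in PDGFRA+ and 796 to 3469 in PDGFRA- cells. The PDGFRA- library of T5 stood apart from the other PDGFRA- libraries and is the one with the summed CPM of 3469, within the GAL1+ range. Of the marker lists, 12 of 12 pan-leukocyte, 8 of 8 microglia, 8 of 8 macrophage and monocyte and 7 of 7 endothelial genes were higher, and 7 of 7 oligodendrocyte lineage genes lower, in GAL1+ than in GAL1- cells (limma, adjusted p under 0.05). Of the pericyte and fibroblast genes 5 of 6 were higher, of the neutrophil genes 1 of 5, of the T and NK cell genes 1 of 7 and of the B cell genes 0 of 1, and 2 of 5 neuron genes were lower. These counts stand beside 28.9% of all 18180 genes called higher and 29.3% called lower in this comparison. The sorted genes followed their gates in part. *Lgals1* ran from 7.41 to 7.95 in GAL1+ and from 6.05 to 6.81 in GAL1- cells. *Pdgfra* was 9.95 to 10.81 in PDGFRA+ and 7.36 to 10.11 in PDGFRA- cells. The mouse gene *Egfr* was 7.68 to 9.02 in GAL1+ and 10.42 to 10.65 in GAL1- cells. It was 9.93 to 10.50 in PDGFRA+ and 8.16 to 10.18 in PDGFRA- cells. The transgene-encoded human EGFR is not analysed here, and whether its reads were counted under *Egfr* was not tested. In these bulk samples, fewer cells of a type and less RNA per cell cannot be told apart.

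*Tnf*, the ligand, was at a log2 CPM of 5.86, 5.31 and 5.57 in GAL1+ cells of T3, T4 and T5, against 0.68, 2.23 and 2.40 in GAL1- cells (499 to 992 and 44 to 130 reads). The GAL1+ and GAL1- values lay far apart in all 3 tumors. PDGFRA+ cells had 3.08, 4.02 and 4.45, and PDGFRA- cells 4.16, 3.24 and 5.45. These values lay between the GAL1 populations, except that the PDGFRA- library of T5 reached the GAL1+ range. The mean was 14.0-fold higher in GAL1+ than in GAL1- cells (log2 fold change 3.81, standard error 0.483, limma adjusted p = 0.000158). *Tnf* also had the largest spread of the 10 genes over the 12 libraries, with an SD of 1.59 on the log2 scale.

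The receptors moved apart. *Tnfrsf1b* (TNFR2) had 7.98, 8.22 and 8.48 in GAL1+ cells and 3.59, 4.66 and 4.93 in GAL1- cells. In PDGFRA+ cells it had 5.99, 7.03 and 7.27, and in PDGFRA- cells 6.71, 6.21 and 7.97. All GAL1+ libraries exceeded all PDGFRA libraries, with the PDGFRA- library of T5 just under the lowest of them, and all PDGFRA libraries exceeded all GAL1- libraries. GAL1+ cells were 14.2-fold higher than GAL1- cells (log2 fold change 3.83, standard error 0.311, adjusted p = 3.93e-05). *Tnfrsf1a* (TNFR1) had 6.52, 6.54 and 6.49 in GAL1+ cells, 6.81, 6.59 and 6.86 in GAL1- cells, 6.80, 6.63 and 6.71 in PDGFRA+ cells and 6.73, 6.52 and 6.59 in PDGFRA- cells. Its 12 values spanned less than those of any other gene here (SD 0.13), and it was the only one of the 10 with its lowest mean in GAL1+ cells. The GAL1+ minus GAL1- difference was -0.24 (standard error 0.0984, adjusted p = 0.0603), lower in 3 of 3 tumors with ranges that did not overlap, but it missed the threshold. It passed after quantile normalization of the libraries, at -0.41.

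Per kilobase of transcript the receptors changed places between the GAL1 populations. Taking the longest protein-coding transcript (3818 bases for *Tnfrsf1b*, 2156 for *Tnfrsf1a*), the mean level was 78.3 CPM per kilobase for *Tnfrsf1b* and 42.4 for *Tnfrsf1a* in GAL1+ cells, and 5.50 and 50.1 in GAL1- cells. The ratio of *Tnfrsf1b* to *Tnfrsf1a* per kilobase was 1.55, 1.81 and 2.24 in GAL1+ cells of T3, T4 and T5 and 0.0608, 0.148 and 0.148 in GAL1- cells. PDGFRA+ cells had ratios of 0.322, 0.749 and 0.834, and PDGFRA- cells of 0.557, 0.458 and 1.47. *Tnfrsf1b* thus exceeded *Tnfrsf1a* per kilobase in all GAL1+ libraries and, elsewhere, only in the PDGFRA- library of T5.

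The 4 NF-kB subunit genes all had their highest mean in GAL1+ and their lowest in GAL1- cells, but by different amounts. *Nfkb1* encodes p105, the precursor of p50. It had a log2 CPM of 8.01, 8.20 and 8.40 in GAL1+ cells, 5.59, 6.07 and 6.06 in GAL1- cells, 6.45, 7.28 and 7.39 in PDGFRA+ cells and 6.78, 6.81 and 7.78 in PDGFRA- cells. *Nfkb2* encodes p100, the precursor of p52 in the noncanonical arm. Its values were 6.98, 7.18 and 7.09 in GAL1+ cells, 4.20, 5.17 and 4.90 in GAL1- cells, 5.38, 6.40 and 6.25 in PDGFRA+ cells and 5.87, 6.07 and 6.53 in PDGFRA- cells. For both genes no GAL1+ library overlapped with any other population. *Nfkb1* was 4.91-fold higher in GAL1+ than in GAL1- cells (log2 fold change 2.30, standard error 0.191, adjusted p = 3.93e-05). *Nfkb2* was 5.01-fold higher (2.32, standard error 0.194, adjusted p = 3.93e-05).

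*Rela* and *Relb*, whose products p65 and RelB carry the transactivation domains of the canonical and noncanonical dimers, varied less. *Rela* had 6.14, 6.47 and 6.15 in GAL1+ cells and 5.33, 5.52 and 5.38 in GAL1- cells, with 5.47, 5.98 and 5.69 in PDGFRA+ and 5.52, 5.98 and 6.11 in PDGFRA- cells. *Relb* had 6.26, 6.50 and 6.24 in GAL1+ cells and 5.30, 5.70 and 5.40 in GAL1- cells, with 5.54, 6.17 and 5.86 in PDGFRA+ and 5.58, 5.94 and 5.96 in PDGFRA- cells. GAL1+ cells did not overlap with GAL1- cells in either gene. PDGFRA+ cells overlapped with GAL1- cells in both, and PDGFRA- cells did so in *Relb*. The differences between GAL1+ and GAL1- cells were smaller than for *Nfkb1* and *Nfkb2*, at 1.79-fold for *Rela* (log2 fold change 0.84 with a standard error of 0.131, adjusted p = 0.000497) and 1.83-fold for *Relb* (0.87, standard error 0.117, adjusted p = 0.000219).

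The feedback genes were among the most abundant of the 10. *Nfkbia* had 8.60, 8.39 and 8.07 in GAL1+ cells, 6.66, 6.88 and 6.97 in GAL1- cells, 7.42, 7.92 and 7.62 in PDGFRA+ cells and 7.72, 7.39 and 7.84 in PDGFRA- cells. Per kilobase it ranked first of the 10 genes in all 4 populations, from 72.4 CPM per kilobase in GAL1- to 207 in GAL1+ cells. *Tnfaip3* had 8.73, 9.08 and 9.06 in GAL1+ cells, 6.25, 6.89 and 6.58 in GAL1- cells, 7.35, 8.17 and 7.98 in PDGFRA+ cells and 7.75, 7.42 and 8.62 in PDGFRA- cells. *Nfkbiz* encodes IkBz, a nuclear member of the IkB family that acts with p50 on secondary targets. It had 8.36, 8.49 and 7.93 in GAL1+ cells, 6.92, 7.25 and 7.12 in GAL1- cells, 7.41, 7.90 and 7.33 in PDGFRA+ cells and 7.53, 7.53 and 7.65 in PDGFRA- cells. GAL1+ and GAL1- values did not overlap for any of these genes. How many of all genes have ranges that do not overlap was not counted, and 58.2% of all genes were called between GAL1+ and GAL1- cells. Overlap is therefore given as a description only, here and in the other paragraphs. The rise in GAL1+ over GAL1- cells was 2.87-fold for *Nfkbia* (log2 fold change 1.52, standard error 0.191, adjusted p = 0.000153). It was 5.22-fold for *Tnfaip3* (2.38, standard error 0.253, adjusted p = 7.21e-05) and 2.25-fold for *Nfkbiz* (1.17, standard error 0.155, adjusted p = 0.000197).

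**Figure D1:**
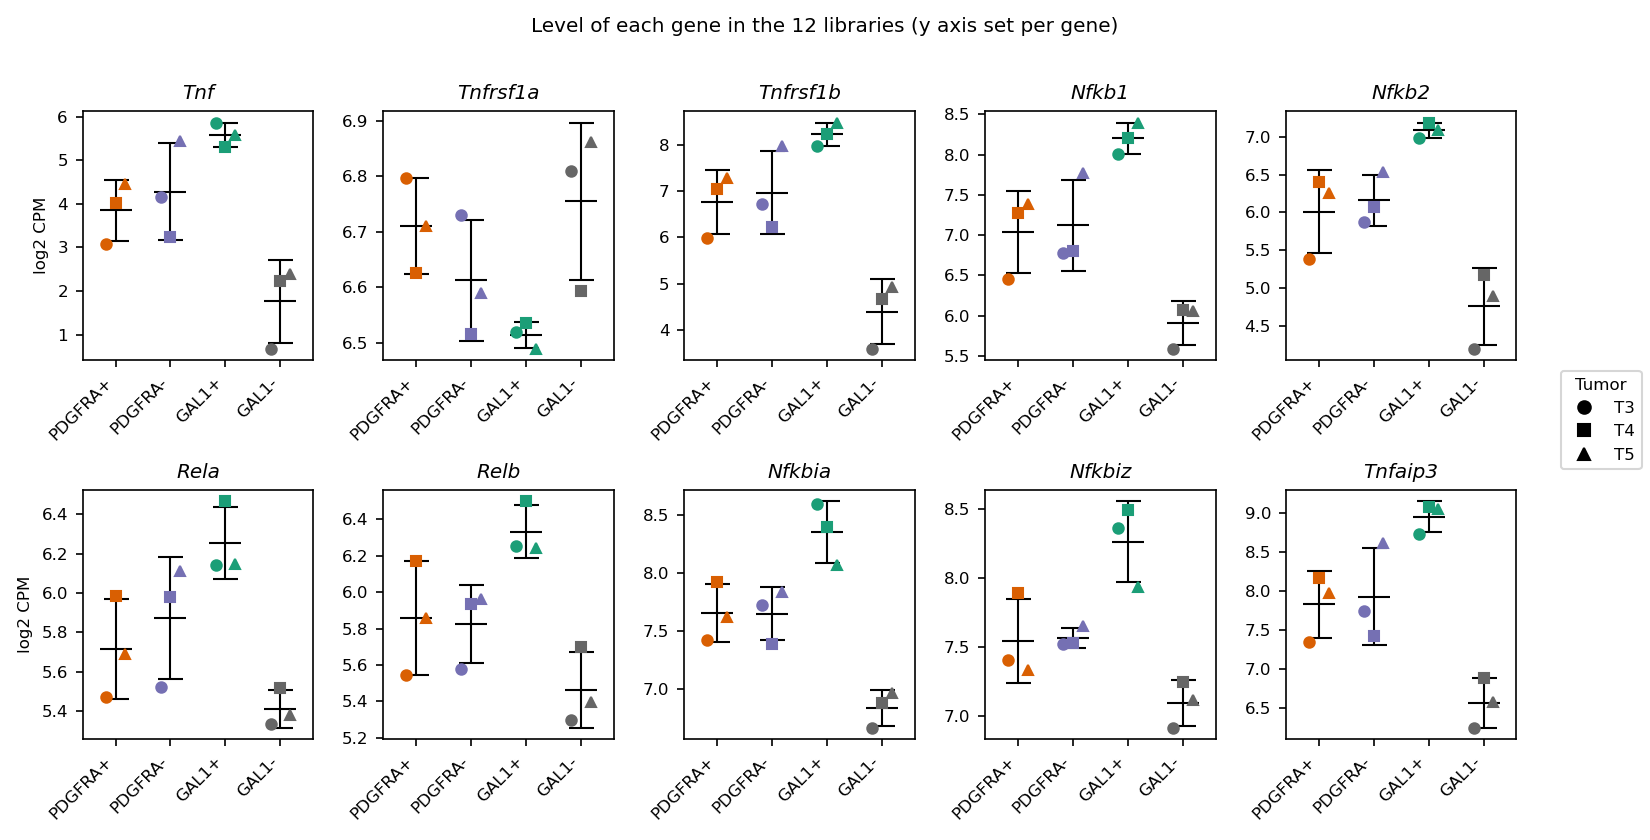
Log2 CPM (y axis, scaled per gene) of the 10 genes in the 4 sorted populations (x axis). Each point is a library, its shape gives the tumor, and the bars give the mean and SD of 3 libraries. GAL1+ cells have the highest mean in 9 panels and the lowest in that of *Tnfrsf1a*.

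*Nfkbia*, *Tnfaip3* and *Nfkb2* are textbook targets of NF-kB itself, and their promoters are shown because the site that NF-kB reads, the kappa-B motif, can be seen in them. The RefSeq promoter tables (GRCm38.p6, a different build from the mm39 used for the counts) held windows for 7 of the 10 genes, and the 250 bases before each start were searched for the kappa-B motif on both strands. In the sequences below, which run 5′ to 3′ on the gene's strand up to the base before the start, capitals mark the motif. They are the windows of *Nfkbia* at chr12:55492648-55492897 (minus strand), of *Tnfaip3* at chr10:19015411-19015660 (minus strand) and of *Nfkb2* at chr19:46304487-46304736 (plus strand).
Nfkbia: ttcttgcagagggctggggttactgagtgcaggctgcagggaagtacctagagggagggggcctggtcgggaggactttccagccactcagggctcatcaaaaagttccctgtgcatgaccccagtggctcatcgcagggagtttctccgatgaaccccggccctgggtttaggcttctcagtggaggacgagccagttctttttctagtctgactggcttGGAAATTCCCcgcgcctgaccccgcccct
Tnfaip3: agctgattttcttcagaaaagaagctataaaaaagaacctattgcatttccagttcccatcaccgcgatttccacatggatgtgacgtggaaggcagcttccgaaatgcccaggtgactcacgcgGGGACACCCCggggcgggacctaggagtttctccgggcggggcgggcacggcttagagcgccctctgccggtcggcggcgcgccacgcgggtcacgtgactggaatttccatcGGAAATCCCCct
Nfkb2: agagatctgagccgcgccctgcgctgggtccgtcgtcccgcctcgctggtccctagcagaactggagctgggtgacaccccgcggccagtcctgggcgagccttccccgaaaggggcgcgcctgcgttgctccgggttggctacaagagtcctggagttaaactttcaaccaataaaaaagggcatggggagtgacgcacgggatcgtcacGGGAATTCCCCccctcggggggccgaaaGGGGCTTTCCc

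*Nfkbia* held 1 match, on the opposite strand, 29 to 20 bases before the start. *Tnfaip3* held a match on each strand at 125 to 116 bases and another on the opposite strand at 12 to 3 bases. *Nfkb2* held 4 matches in this window, of which 3 overlap at 39 to 29 bases and the other lies at 11 to 2 bases, and its other 2 windows each held 1. No match was found in the windows of *Tnf*, *Tnfrsf1a*, *Tnfrsf1b* and *Rela*, or in the second window of *Tnfaip3*, and *Nfkb1*, *Relb* and *Nfkbiz* had no window. Only the form GGGRNNYYCC was searched for, where R is A or G, Y is C or T and N is any base. Sites of another form or farther from the start were not searched. A window without a match therefore does not show that a gene lacks an NF-kB site. Of all genes with a window, 8.23% of 27025 held the motif, so its presence in 3 of 7 is given as a description of these letters only.

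Between GAL1+ and GAL1- cells, 9 of the 10 genes were higher in GAL1+ cells and 0 were lower. Over all 18180 genes, 28.9% were called higher and 29.3% lower. The median log2 fold change of the 10 genes was 1.91, against -0.03 over all genes. The 12 pan-leukocyte genes had a median of 4.35 in the same comparison, above *Tnfrsf1b* at 3.83 and *Tnf* at 3.81, and their part in the result was not tested.

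The sort on PDGFRA showed a different picture. Between PDGFRA+ and PDGFRA- cells limma called 0 of the 10 genes, and 0 of the 10 had an unadjusted p under 0.05. Over the whole table it also called 0 genes (0%), with 6.02% higher and 5.74% lower at an unadjusted p under 0.05. The differences ran from -0.43 for *Tnf* (standard error 0.483, adjusted p = 0.754) to 0.10 for *Tnfrsf1a* (standard error 0.0984, adjusted p = 0.725), and the smallest adjusted p was that of *Rela* (-0.16, 0.668). The tumors disagreed with each other. *Tnf* was lower in PDGFRA+ than PDGFRA- cells by 1.08 in T3 and 1.00 in T5 but higher by 0.78 in T4, and *Tnfrsf1b* was lower by 0.73 and 0.69 in T3 and T5 but higher by 0.82 in T4. *Tnfaip3* differed by -0.40, 0.75 and -0.64, and *Nfkbia* by -0.30, 0.53 and -0.22, in T3, T4 and T5. In all, 9 of the 10 genes had a negative difference in T3 and T5 and a positive one in T4, though that of *Rela* in T4 was only 0.00071. *Tnfrsf1a* was the other gene, with differences of 0.07, 0.11 and 0.12. The mean log2 CPM of the 12 pan-leukocyte genes differed by -0.93 in T3, 0.98 in T4 and -1.15 in T5, the same signs by tumor, and its part in these differences was not tested. Without the PDGFRA- library of T5 the count of genes called was also 0, and *Tnfrsf1b*, *Nfkb1*, *Nfkbiz* and *Tnfaip3* turned to positive differences of 0.09, 0.13, 0.10 and 0.21. The paper, unlike the result here, reports genes that differ in this sort. Among them it found inflammatory, immune and neutrophil chemotaxis genes enriched in PDGFRA- cells. The reason for the unlike results was not tested.

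**Figure D2:**
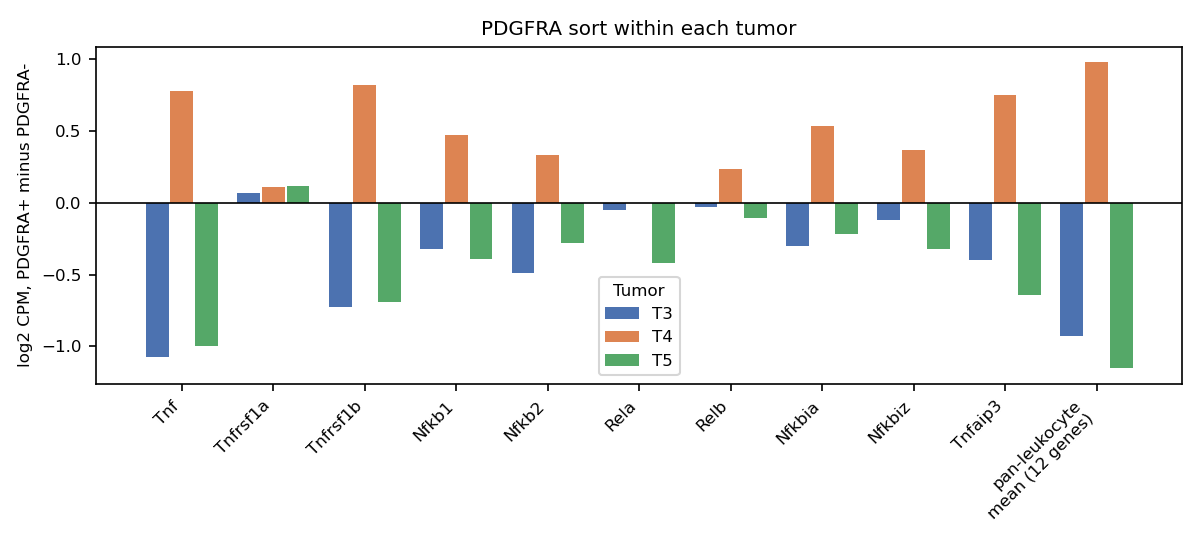
Difference in log2 CPM between PDGFRA+ and PDGFRA- cells (y axis) for each gene and for the mean of 12 pan-leukocyte genes (x axis), with 1 bar per tumor. The bars of T4 point up and those of T3 and T5 down for all but *Tnfrsf1a*, the bar of *Rela* in T4 being close to 0.

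The study set PDGFRA+ against GAL1+ cells to compare signaling in its differing EGFR+ populations. In this comparison 9 of the 10 genes were lower in PDGFRA+ cells and 0 were higher, while 17.0% of all genes were called lower and 20.9% higher. The median of the 10 was -0.89, against 0.01 for all genes. *Tnf* was 3.32-fold lower (log2 fold change -1.73 with a standard error of 0.483, adjusted p = 0.0207) and *Tnfrsf1b* 2.75-fold lower (-1.46, standard error 0.311, adjusted p = 0.00706). *Nfkb1* fell by 1.16 (adjusted p = 0.0025) and *Nfkb2* by 1.07 (adjusted p = 0.00361), while *Rela* and *Relb* fell by 0.54 and 0.47 (adjusted p = 0.0122 and 0.0128). Of the feedback genes, *Tnfaip3* fell by 1.12 (adjusted p = 0.00884), *Nfkbiz* by 0.72 (adjusted p = 0.00731) and *Nfkbia* by 0.70 (adjusted p = 0.0192). Each of these 9 was lower in PDGFRA+ cells of 3 of 3 tumors. *Tnfrsf1a* had a difference of 0.20 (standard error 0.0984, adjusted p = 0.143). T3 had the largest difference of the 3 tumors for all 9 called genes, and without T3 limma called 0 of the 10, with 6 at an unadjusted p under 0.05. Over all genes, 1.63% were called lower and 9.97% higher without T3, against 17.0% and 20.9% with it. The loss of calls was thus larger among lower genes, the direction of these 9. Without the tumor as a block 5 of the 10 were called lower, beside 5.17% of all genes. The 12 pan-leukocyte genes were all lower in PDGFRA+ cells (median -1.58), and the oligodendrocyte lineage genes all higher (7 of 7, median 2.20), and neither was tested as a part of the result.

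Scaling changed the balance of calls over all genes in this comparison. With each library centred on its median log2 CPM, the median of all genes was -0.15, and 40.8% of the called genes were higher in PDGFRA+ cells, against 55.1% with the values as deposited. With quantile normalization that share was 50.5%. The number of the 10 genes called lower was 9 with median centring and 8 with quantile normalization, under which *Nfkbia* missed the threshold (adjusted p = 0.108).

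**Figure D3:**
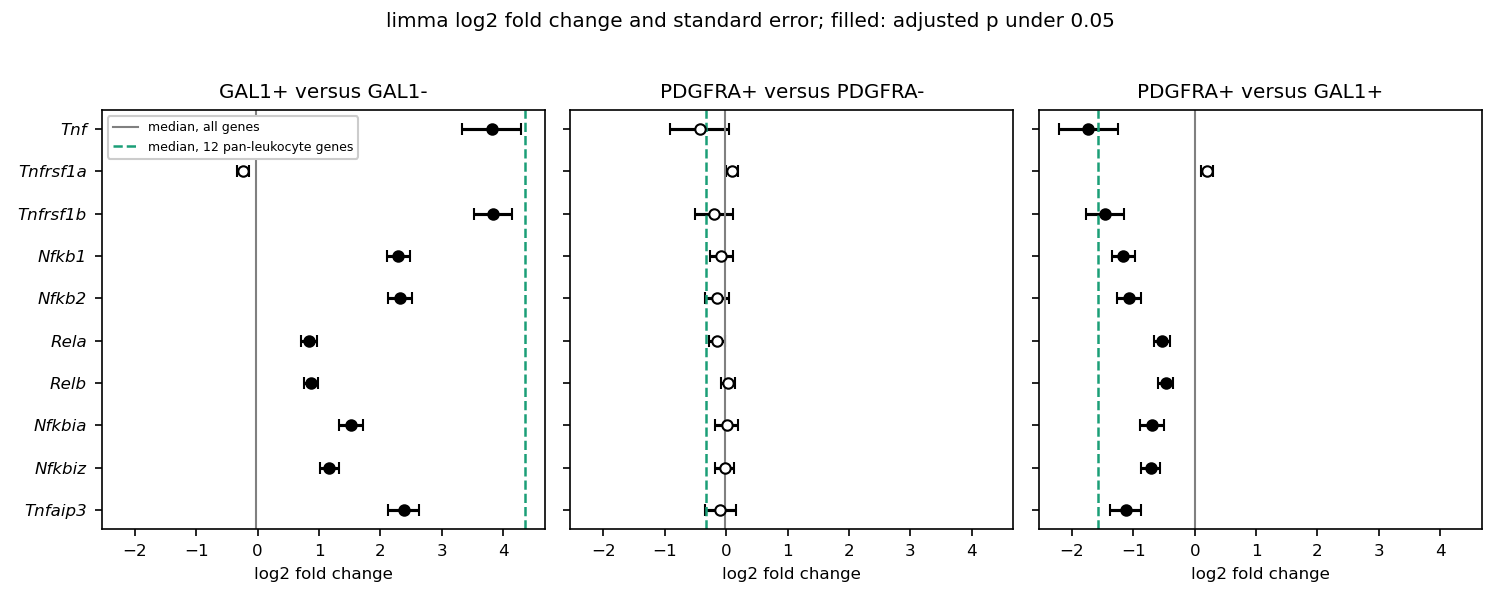
Log2 fold changes with standard errors from limma (x axis) of the 10 genes (y axis) in 3 comparisons. Filled points passed an adjusted p of 0.05. The grey line is the median of all 18180 genes and the dashed line the median of 12 pan-leukocyte genes. In the GAL1 sort 9 genes lie to the right of the grey line, and in PDGFRA+ against GAL1+ cells the same 9 lie to its left.

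The remaining pairs of populations placed the PDGFRA sort between the GAL1 populations. PDGFRA- cells were lower than GAL1+ cells in 7 of the 10 genes (6.91% of all genes were called lower), all but *Tnf* (-1.30, adjusted p = 0.0835), *Rela* (-0.38, adjusted p = 0.0671) and *Tnfrsf1a* (0.10, adjusted p = 0.502). PDGFRA+ cells were higher than GAL1- cells in 6 of the 10 (8.26% of all genes were called higher), namely *Tnf*, *Tnfrsf1b*, *Nfkb1*, *Nfkb2*, *Nfkbia* and *Tnfaip3*. PDGFRA- cells were higher than GAL1- cells in 7 of the 10 (16.2% of all genes were called higher), the same 6 and *Rela*. The 2 comparisons of PDGFRA- cells shifted with scaling over the whole table. The share of called genes that were higher in PDGFRA- cells was 65.6% against GAL1+ and 70.2% against GAL1- cells, and 46.9% and 51.4% with median centring. Against GAL1- cells it was 47.2% with quantile normalization. Where leaving out a tumor lowered these counts, the whole table lost calls as well. The count of 7 against GAL1+ cells was 0 without T3 (0.187% of all genes lower), without T4 (0%) and without the tumor block (0.583%). The count of 6 was 0 without T3 (0% of all genes higher), 2 without T5 (3.94%) and 2 without the block (3.36%). The count of 7 against GAL1- cells was 3 without T3 (6.66% of all genes higher) and 2 without T5 (4.96%). The largest folds were those of *Tnfrsf1b*, 5.17-fold in PDGFRA+ (log2 fold change 2.37, adjusted p = 0.00231) and 5.94-fold in PDGFRA- cells (2.57, adjusted p = 0.000925) over GAL1- cells.

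By mean level, then, 9 of the 10 genes ran from GAL1+ through both PDGFRA populations to GAL1- cells. PDGFRA- cells stood above PDGFRA+ cells in *Tnf*, *Tnfrsf1b*, *Nfkb1*, *Nfkb2*, *Rela*, *Nfkbiz* and *Tnfaip3*, and below them in *Relb* and *Nfkbia*. In no gene did the difference between these middle neighbours pass the limma threshold. Neighbours at the ends of the order also missed the threshold for *Rela* between PDGFRA+ and GAL1- cells (0.30, adjusted p = 0.268). The same held for *Relb* between PDGFRA- and GAL1- cells (0.36, adjusted p = 0.0519) and for *Nfkbiz* between PDGFRA+ and GAL1- cells (0.45, adjusted p = 0.137). Between GAL1+ and PDGFRA- cells *Tnf* and *Rela* missed the threshold, as given above. The ranges overlapped in *Tnf* but not in *Rela*, and both genes were lower in PDGFRA- cells of 3 of 3 tumors. *Tnfrsf1a* had the order GAL1-, PDGFRA+, PDGFRA- and GAL1+, with means of 6.75 ± 0.14, 6.71 ± 0.09, 6.61 ± 0.11 and 6.52 ± 0.02 (SD, n = 3), in which no difference between neighbours passed the threshold.

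The difference between the sorts was tested as an interaction, the GAL1+ minus GAL1- difference less the PDGFRA+ minus PDGFRA- difference. It passed, with a positive sign, in 9 of the 10 genes, against 26.2% of all genes. *Tnf* had 4.24 (standard error 0.683, adjusted p = 0.000891) and *Tnfrsf1b* 4.03 (standard error 0.440, adjusted p = 0.000275), and *Relb* had the smallest value of those that passed, 0.84 (standard error 0.166, adjusted p = 0.00257). *Tnfrsf1a* had -0.34 (standard error 0.139, adjusted p = 0.0671). The sign was the same in 3 of 3 tumors for each of the 10 genes.

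The 9 genes other than *Tnfrsf1a* moved together across libraries. Over the 12 libraries the Pearson r of log2 CPM between them was 0.819 to 0.988 in 36 pairs (median 0.927), and it was 0.296 to 0.958 (median 0.779) after the means of population and tumor were subtracted. *Tnfrsf1a* had r of -0.858 to -0.649 with the other 9, and -0.471 to 0.174 after subtraction. These are descriptions, since libraries of a tumor share mice and cells, and they come with no test. The range of r over all pairs of genes was not taken, so the high values are not shown to be particular to these 9. Of all genes, 28.9% were called higher in GAL1+ than in GAL1- cells. Against the mean log2 CPM of the 12 pan-leukocyte genes, r over the same 12 libraries was 0.995 for *Tnfrsf1b*, 0.98 for *Tnf* and *Tnfaip3*, 0.97 for *Nfkb1* and *Nfkb2*, 0.93 for *Nfkbia*, 0.85 for *Rela* and *Relb*, 0.83 for *Nfkbiz* and -0.69 for *Tnfrsf1a*. *Tnfrsf1b* was nearest to the leukocyte genes, and *Rela*, *Relb* and *Nfkbiz* were the farthest of the 9.

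The genes with the pattern most like that of *Tnf*, of 13221 compared over the 12 libraries, were *Arhgap9*, *Gmfg*, *Lcp1*, *Stxbp2* and *Gpr183* (r = 0.987 to 0.990). *Lcp1* is on the pan-leukocyte list. Nearest to *Relb* were *Plxdc2*, *Swap70*, *Agps*, *Ski* and *Sun2* (r = 0.965 to 0.970). Nearest to *Tnfrsf1a* were *Selenok-ps6* and *Selenok-ps4*, a pair of pseudogenes whose counts may rest on shared reads, then *Zswim1*, *Tmx2* and *Irgm1* (r = 0.925 to 0.958). The likeness is a correlation over libraries that share tumors.

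Around these 10 genes, a list of 78 other genes of the pathway was compiled by role, and 75 of them were in the table. Between GAL1+ and GAL1- cells 59 were higher and 4 lower, with a median log2 fold change of 1.56. In the same comparison 28.9% of all 18180 genes were called higher and 29.3% lower, with a median of -0.03. The counts by role below stand beside these shares. All 5 of the other NF-kB subunit and inhibitors were higher: *Rel* (2.56), which encodes c-Rel, *Nfkbid* (3.34), *Nfkbie* (3.05), *Nfkbib* (1.71) and *Bcl3* (0.41). Of the 3 genes for shedding of TNF, *Adam17*, the protease that cuts it free, was higher by 1.67 and *Rhbdf2*, which encodes its partner iRhom2, by 4.19. *Rhbdf1*, which encodes iRhom1, fell by 1.10 (standard error 0.372, adjusted p = 0.0283). Adaptors and ubiquitin ligases were higher in 10 of 12, kinases in 6 of 10 with 1 lower, and deubiquitinases and restraining adaptors in 8 of 9.

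Of the 19 target genes 17 were higher in GAL1+ cells and 0 lower, beside 28.9% and 29.3% of all genes. The largest changes were those of *Bcl2a1b* (4.85, standard error 0.474, adjusted p = 5.37e-05), a survival gene with near-identical copies between which reads may be split, and *Plau* (4.85, standard error 0.456, adjusted p = 4.86e-05), the urokinase gene. Of the whole list, *Tnfrsf11a*, which encodes the receptor RANK, had the largest change (4.98, standard error 0.399, adjusted p = 3.93e-05), from a log2 CPM of 0.91 ± 0.54 in GAL1- to 5.89 ± 0.13 in GAL1+ cells (SD, n = 3). The death arm split, with *Ripk3* (3.63), *Cflar* (2.31) and *Casp8* (1.81) higher, *Mlkl* lower (-0.61) and *Fadd* at 0.41 without passing. *Tnfrsf13c*, the BAFF receptor of B cells, fell by 1.67 (standard error 0.406, adjusted p = 0.00614) on only 3 to 11 reads in GAL1+ cells. *Tab1*, a partner of the kinase TAK1, fell by 0.75 (standard error 0.158, adjusted p = 0.00288). Of the other ligands, *Tnfsf13b* (4.02), *Tnfsf14* (3.35), *Tnfsf12* (1.61) and *Tnfsf10* (0.95) were higher, with *Ltb* at 1.08 without passing. *Tnfsf14* rested on 2 to 9 reads in GAL1- and 26 to 29 reads in GAL1+ cells.

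**Figure D4:**
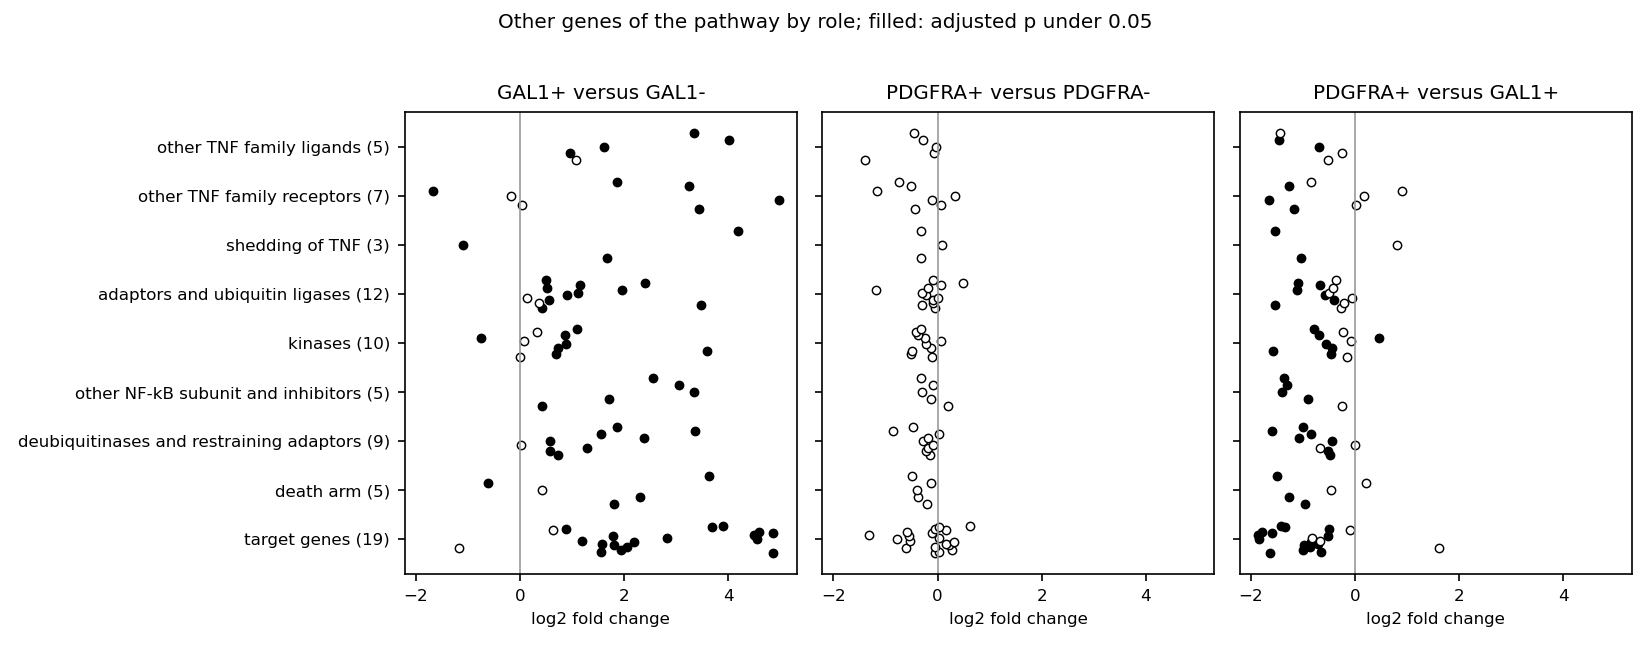
Log2 fold changes (x axis) of the 75 other pathway genes by role (y axis, number of genes in parentheses) in 3 comparisons. Each point is a gene, filled where its adjusted p was under 0.05. Filled points lie mostly to the right in the GAL1 sort (59 of 63) and to the left in PDGFRA+ against GAL1+ cells (48 of 49), and the PDGFRA sort has 0. Of all genes, 28.9% were called higher and 29.3% lower in the GAL1 sort. In PDGFRA+ against GAL1+ cells 20.9% were called higher and 17.0% lower.

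In the PDGFRA sort 0 of the 75 passed and 10 had an unadjusted p under 0.05, all of them lower in PDGFRA+ cells. Of all genes, 5.74% were lower and 6.02% higher at that unadjusted threshold. Between PDGFRA+ and GAL1+ cells 48 of the 75 were lower and 1 higher, with a median of -0.69. There 17.0% of all genes were called lower and 20.9% higher. The 15 target genes that fell were led by *Nos2*, encoding inducible nitric oxide synthase (-1.87, standard error 0.401, adjusted p = 0.00722), *Il1b*, the cytokine interleukin-1b (-1.85, standard error 0.436, adjusted p = 0.0106), and *Ptgs2*, encoding cyclooxygenase-2 (-1.78, standard error 0.371, adjusted p = 0.00648). GAL1+ cells had 9.72 ± 0.26 log2 CPM of *Il1b* and PDGFRA- cells 8.64 ± 1.04, followed by 7.87 ± 0.68 in the PDGFRA+ and 5.17 ± 0.74 in the GAL1- libraries (SD, n = 3), the same order as *Tnf*. The 1 gene that was higher was *Tab1* (0.47, standard error 0.158, adjusted p = 0.0424). Without T3 only 5 of the 75 passed, and without the tumor block 21, again with fewer calls over the whole table as given above.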

How the data were processed

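Bulk RNA-seq libraries were prepared with a SMARTer Stranded Total RNA-seq Pico kit from 1 ng of RNA. The authors trimmed reads with fastp, aligned them with STAR to mm39, counted exons with featureCounts (multimapping reads as fractions), kept genes above 1 CPM in at least 3 samples, scaled by TMM and ran voom. What the authors deposited is log2 CPM with an offset of 0.5 per count, for 18180 genes. The strand setting of the counting is not given in the sources used here.

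Populations were compared in limma 3.58.1, with all 12 libraries in a single model of population plus tumor (the block) (R 4.3.3, eBayes with trend, 6 residual and 3.49 prior degrees of freedom). Benjamini-Hochberg adjustment ran over all 18180 genes, two-sided, with calls at an adjusted p under 0.05. The tests were checked on simulated data. To recover reads, a library's lowest value was taken as 0 reads, and 41.3% to 59.2% of them were whole within 0.01 reads, so no count model was used. A level of 3 reads lies at a log2 CPM of -2.99 to -1.44, and read numbers speak of counting error only. Same-numbered libraries come from the same tumor by their labels, and 18 same-tumor pairs correlated at 0.140 to 0.662 (mean 0.486) after population means were removed.

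Transcript lengths are from GENCODE vM21 (GRCm38), so levels per kilobase are approximate for mm39. Promoters are from RefSeq (GRCm38.p6). No gene coordinates on mm39 are given.

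The 10 genes, the pathway and marker lists and the tests were chosen with earlier results of these data known. All 10 genes were named. Of the pathway list, the rule named the 3 genes that rose most and the 3 that fell most in each of the 3 main comparisons among called genes with 1 direction in 3 of 3 tumors. For *Tnf*, *Tnfrsf1a* and *Relb* it named the 5 genes most correlated over the 12 libraries with a mean log2 CPM above 1, predicted genes left out. All genes of the groups for ligands, shedding, the death arm and other NF-kB subunit and inhibitors were also named, a choice made after their values were seen, as were *Tnfsf14* reads. The alternatives left out the block, fitted the compared groups alone, ran eBayes without a trend or robustly, weighted the recovered reads by voom, added 1 CPM before the log, kept genes at a log2 CPM above 1 in 3 samples, used quantile normalization or median centring, or left out each tumor or the PDGFRA- library of T5. The alternatives for the remaining pairs of populations were added after seeing the data. Figures were drawn with matplotlib 3.10.9. An item of the model's genotype is not reported here.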

Additional observations from a re-analysis of the deposited data

Results flagged for a closer look

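The GAL1 and PDGFRA sorts differed in 9 of the 10 genes by limma's interaction test, in which the PDGFRA+ minus PDGFRA- difference was taken from the GAL1+ minus GAL1- difference. On the log2 scale this value was 4.24 for *Tnf*, 4.03 for *Tnfrsf1b*, 2.48 for *Tnfaip3*, 2.47 for *Nfkb2*, 2.38 for *Nfkb1*, 1.51 for *Nfkbia*, 1.19 for *Nfkbiz*, 1.00 for *Rela* and 0.84 for *Relb*. Over all genes 26.2% passed with a positive sign. Groups of 3 samples are too small for a formal search for samples far from the others, so none was run. The PDGFRA- library of T5, which stood apart in its pan-leukocyte genes, was left out in an alternative without such a search.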

How the results depend on the processing

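In the GAL1 sort all 9 called genes were called in the same direction under each of the 13 alternatives, and *Tnfrsf1a* passed under quantile normalization only. The interaction called 9 of the 10 under each alternative run, no replicate block included, except quantile normalization, which called all 10. Between PDGFRA+ and GAL1+ cells no gene changed direction, but of 130 values 16 lost their call. There the count of 9 fell to 5 with no replicate block and ran from 0 (without T3) to 9 when libraries were left out, and the pathway count of 49 fell to 21 with no replicate block and ran from 5 (without T3) to 52. For PDGFRA- against GAL1+ cells the count of 7 became 0 with no replicate block and 4 in a fit to those samples only, and ran from 0 (without T3 or T4) to 9. For PDGFRA+ against GAL1- cells the count of 6 became 2 with no replicate block and ran from 0 (without T3) to 7. For PDGFRA- against GAL1- cells the count of 7 became 4 in a fit to those samples only and ran from 2 (without T5) to 6. The shares of all genes called in these directions moved as well. With libraries left out, 1.63% to 19.2% were lower in PDGFRA+ than GAL1+ cells, and 0% to 13.4% in PDGFRA- than GAL1+ cells. Over GAL1- cells, 0% to 10.3% were higher in PDGFRA+ and 4.96% to 13.5% in PDGFRA- cells. In the fits to the compared samples only, 3.19% were lower in PDGFRA- than GAL1+ cells and 6.63% higher in PDGFRA- than GAL1- cells. Fewer samples enter the fits that leave out a tumor, and beyond that the cause was not tested.

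In the PDGFRA sort 0 genes were called under any of the 13 alternatives, and 17 of 130 values changed sign. *Nfkbia* was -0.014 with median centring and *Nfkbiz* 0.031 with quantile normalization. With libraries left out, the difference ran from -0.71 to 0.086 for *Tnfrsf1b*, from -0.36 to 0.13 for *Nfkb1*, from -0.39 to 0.025 for *Nfkb2*, from -0.068 to 0.13 for *Relb*, from -0.26 to 0.16 for *Nfkbia*, from -0.22 to 0.12 for *Nfkbiz* and from -0.52 to 0.21 for *Tnfaip3*. The lowest value of each was the one without T4. A p over the threshold does not show that the PDGFRA populations are alike.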
